A study of Mus musculus with 3 samples.

Results

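The cells described here are Müller glia of the mouse retina that carried little Ndufa4l2 transcript. A barcode was taken as a Müller glial cell when at least 5 of the genes Rlbp1, Slc1a3, Aqp4, Kcnj10, Car14, Crym, Gpr37 and Abca8a had 3 or more reads and when the bipolar genes Trpm1 and Grm6 together had fewer than 5. It was a member when Ndufa4l2 stood below 500 CPM (reads per 1000000 reads, taken over the barcode's own reads), so the members were chosen by a measured value. There were 3126 members among 4481 Müller barcodes, out of 25237 barcodes kept in the whole series because they had at least 500 genes and at most 20% mitochondrial reads. By group they were 367 of 1497 Müller barcodes in the library labelled Tspan12 KO (24.5%, 22.4 to 26.8%), 1126 of 1249 in the library of Tspan12 KO mice treated with F4L5.13 (90.2%, 88.4 to 91.7%), and 1633 of 1735 in the WT library (94.1%, 92.9 to 95.2%). The remaining Müller barcodes, called high glia here, numbered 1130 in KO, 123 in treated and 102 in WT. Bipolar cells, set beside the members below, were kept barcodes with at least 5 reads of Trpm1 and Grm6 together. In them at most 1 of the 8 Müller genes had 3 or more reads, so their glial transcripts are low by that choice. Where barcodes were thinned to 5000 reads, 500 bipolar barcodes per library were drawn at random first. All retinas were taken at P26. Each group is 1 library of 10x 3′ tags with no replicate, so every difference reported is between single libraries, and an interval covers counting error only. The strain field of the labels names the allele Tspan12tm1.2Hjug for all 3 libraries, the WT one included. F4L5.13 was injected into the peritoneum of KO mice, with 10 mg/kg given on P6, P9 and P12 and doses of 4 mg/kg following at intervals of 3 days. The sources used here do not say how many animals went into a library. The suspension had been depleted of photoreceptors and dying cells with CD73 and Annexin V beads.

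Müller glia span the whole thickness of the retina. They recycle glutamate and visual chromophore, buffer potassium and water, and support the retinal vessels. In injury or disease they become reactive and make the intermediate filament GFAP. TSPAN12 is a co-receptor for Norrin, a Müller-derived ligand that acts through FZD4 and LRP5 in endothelial cells and is needed for the deep retinal vessels to form. F4L5.13 is an antibody that bridges FZD4 and LRP5 and acts in place of the ligand. Ndufa4l2 encodes a relative of a respiratory chain subunit. It is a target of the hypoxia-inducible factors (HIF), and low oxygen raises its transcript in many cells.

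Of 12 Müller markers, 8 were the genes of the member rule, so their reads follow from the choice. Glul, Dkk3, Sox9 and Rax were not used by the choice and had reads in the members of all 3 libraries. The summed level of all 12 was 14771 CPM in KO members, 16212 CPM in treated members and 19142 CPM in WT members. This sum rests in large part on the rule's genes and does not test the identity. Many barcodes also held transcripts of other cells. Neuronal marker genes made up at least 0.3% of the reads in 65.9% of KO, 49.1% of treated and 28.7% of WT members, and in 49.2% of KO high glia. Summed rod markers stood at 12134 CPM in KO members, 12553 CPM in treated members and 9977 CPM in WT members, against 8872 CPM in KO high glia. Amacrine markers summed to 184, 28.5 and 40.5 CPM and microglial markers to 112, 24.0 and 14.0 CPM in KO, treated and WT members. Those of endothelial cells other than Kdr and Flt1 summed to 16.2, 35.9 and 125 CPM. The 4 haemoglobin genes summed to 0.637, 507 and 371 CPM in KO, treated and WT members. In bipolar cells they summed to 0.508, 595 and 10.4 CPM. At least 3 microglial reads were found in 13 of the KO, 29 of the treated and 21 of the WT members, and the astrocyte gene Pax2 in 2, 1 and 4 of them. The part of these transcripts in the results was tested only by leaving the barcodes out, and values without them are given for some genes only. The median number of reads per member was 30206 in KO, 24747 in treated and 19573 in WT. The libraries shared 31 barcode sequences between KO and treated, 17 between KO and WT and 15 between treated and WT, and 1 of these was a member in both libraries of its pair. Tspan12 had 23.8 CPM in KO members, 24.2 CPM in treated members and 45.2 CPM in WT members. The sources used here do not say which part of the gene the allele lacks, and 3′ tags outside that part do not check the genotype.

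Ndufa4l2 (GRCm38 chromosome 10, 127514967 to 127517154, plus strand) chose the members, so its levels are a description and support nothing. Over all reads of a set it stood at 200 CPM in KO members, 77.0 CPM in treated members and 44.8 CPM in WT members. High glia had 1864 CPM in KO, 999 CPM in treated and 908 CPM in WT. Bipolar cells, which were chosen to hold few Müller reads, had 9.31, 1.52 and 4.05 CPM. No Ndufa4l2 read was present in 87 of the 367 KO members (23.7%), in 699 of the 1126 treated members (62.1%) and in 1260 of the 1633 WT members (77.2%). With every barcode thinned to 5000 reads these shares became 46.1%, 77.6% and 87.5%, in the same order of libraries. The KO members thus lay closer to the threshold. Of them, 142 had between 250 and 500 CPM, against 123 of the treated and 97 of the WT members. Just inside the threshold, between 450 and 500 CPM, were 31 KO, 12 treated and 19 WT barcodes, and just outside it, between 500 and 550, were 28, 10 and 13. The highest member had 497 CPM in KO, 496 in treated and 494 in WT, and the lowest barcode outside had 504, 512 and 501. The distribution had no gap at the threshold, which cuts a continuous range.

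**Figure D1:**
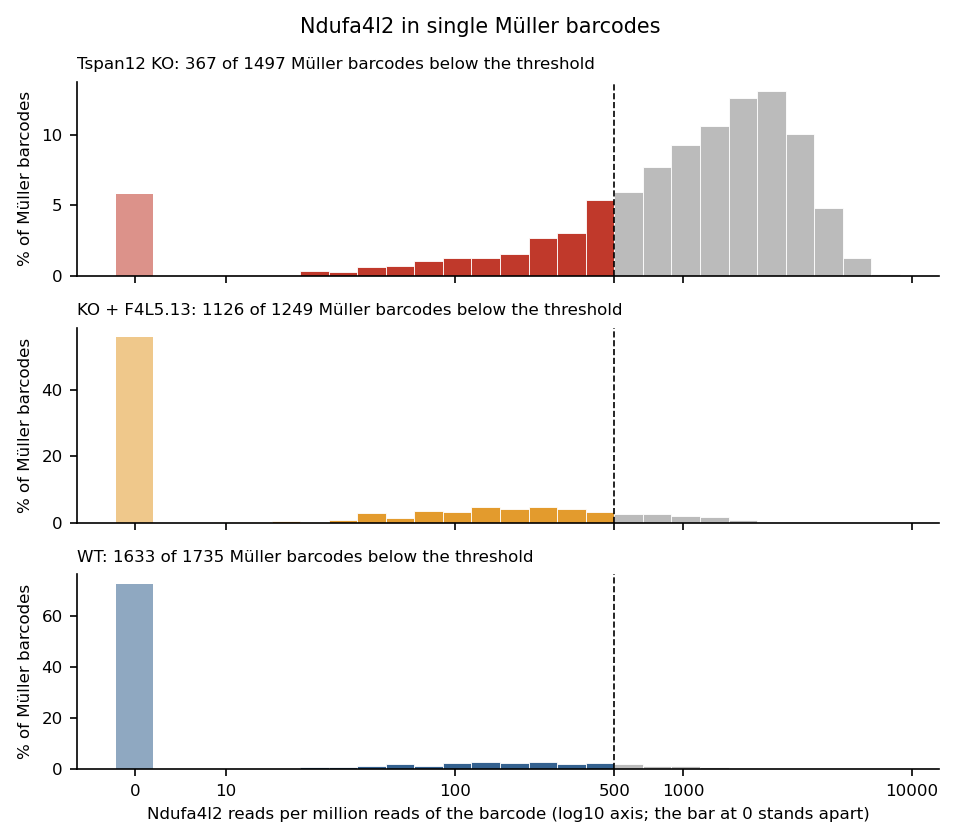
Ndufa4l2 level per Müller barcode (CPM of the barcode's own reads, x axis) in the KO, treated and WT libraries, as the share of Müller barcodes in each bin (y axis), with the threshold of 500 CPM marked. Barcodes below the line are the members, 24.5% of the KO, 90.2% of the treated and 94.1% of the WT Müller barcodes.

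KO and WT members were compared to describe what distinguishes the knockout glia when Ndufa4l2 is low in both. A gene was measured when both sides together held at least 30 molecule equivalents, that is, reads divided by a factor for uncollapsed duplicates. It was called when the CPM ratio was at least 2 in either direction and the bound of its 95% interval nearest to 1 lay beyond 1.5-fold. Of 14660 genes measured, 465 (3.17%) were called higher and 280 (1.91%) lower in KO members, and the median log2 ratio of all genes was 0.06. Reactive glia genes, complement genes and metallothioneins were mostly higher in KO members. Müller transcription factors, BMP and Id genes and cholesterol synthesis genes were mostly lower.

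Of 23 measured gliosis genes 20 were higher in KO members, 15 of them called, and 1 was called lower, with a list median of 1.47 (log2). Gfap had 419 CPM in KO members, 77.1 CPM in treated members and 42.2 CPM in WT members, a KO to WT ratio of 9.92 (9.03 to 10.9). It was uneven from cell to cell. No Gfap read was present in 44.4% of KO, 80.6% of treated and 94.7% of WT members, and the highest KO member had 10581 CPM. With barcodes thinned to 5000 reads, 39.5% of KO, 11.2% of treated and 2.33% of WT members had a Gfap read, against 1.6%, 1.0% and 0.4% of bipolar cells, which should lack it. Before thinning the members' shares were 55.6%, 19.4% and 5.33%. Median reads per bipolar barcode were 12502, 14031 and 12175. Leaving out barcodes with Pax2 or microglial reads gave 298 CPM in KO, 62.9 CPM in treated and 14.6 CPM in WT members, so the direction stood. The KO to WT log2 ratio was 3.31 over all members, 5.16 in barcodes of 10000 to 40000 reads and 2.57 in members without an Ndufa4l2 read.

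Genes of secreted proteins in the gliosis list had larger ratios than Gfap. Lcn2, which encodes the iron-carrier binding protein lipocalin 2, had 273 CPM in KO members, 17.9 CPM in treated members and 4.61 CPM in WT members, and the KO to WT ratio was 59.2 (46.0 to 77.5). Few cells carried it, since 71 of 367 KO members had a read and 5 of them held 37.7% of all its reads. Timp1, an inhibitor of matrix metalloproteinases, had 52.4, 6.45 and 0.943 CPM in KO, treated and WT members, and Serpina3n, a protease inhibitor of reactive glia, had 114, 25.9 and 5.79 CPM. The protease inhibitor A2m had 61.7, 6.33 and 2.36 CPM in the same order. In KO members 5 barcodes held 40.0% of the Timp1 reads. Edn2, an endothelin that stressed photoreceptors make, had 13.1, 3.61 and 0.157 CPM, a KO to WT ratio of 83.1 (23.0 to 622). Each of these genes was highest in KO and lowest in WT members. Receptors and signal carriers of the cytokines that drive gliosis followed with smaller ratios: the oncostatin receptor Osmr had 71.0, 38.4 and 22.1 CPM and the transcription factor Stat3 had 140, 89.7 and 50.5 CPM. Vim, an intermediate filament that Müller glia always make, had 1086, 1073 and 1046 CPM.

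Other genes among the 12 highest KO to WT ratios were the NF-kappaB cofactor Bcl3 (10.6 CPM in KO against 0.341 CPM in WT), the tubulin Tubb6 (20.7 against 1.52 CPM), the actin crosslinker Flnc (19.0 against 1.47 CPM), the haem-degrading enzyme Hmox1 (40.3 against 3.20 CPM), the prostaglandin receptor Ptgfr (11.9 against 0.943 CPM) and the metalloreductase Steap4 (5.97 against 0.524 CPM). In KO members 5 barcodes held 44% of the Steap4 and 45.5% of the Hmox1 reads. Among members without any Ndufa4l2 read, 6 of the 12 highest genes kept the call. Among members with under 0.3% neuronal marker reads 7 did, with fewer barcodes in both sets. Over all genes measured, 2.46% were called higher and 0.835% lower in KO in the first set, and 1.98% higher and 1.15% lower in the second. With the low neuronal share Gfap had 741 CPM in KO, 96.3 CPM in treated and 54.1 CPM in WT members, and Lcn2 had 434, 24.2 and 3.60 CPM.

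Metallothioneins, the small cysteine-rich proteins that bind zinc and copper, had a list median of 2.30 (log2), and 2 of the 3 genes were called higher in KO members. Mt1 had 8540 CPM in KO members, 2892 CPM in treated members and 1734 CPM in WT members, a KO to WT ratio of 4.93 (4.85 to 5.01). Mt2 had 1759, 438 and 244 CPM in KO, treated and WT members, a ratio of 7.22 for KO against WT. Mt3, the brain form, had 418, 279 and 244 CPM. The difference was spread over the cells. The median sum of the 3 genes per barcode was 6587 CPM in KO, 2420 in treated and 1767 in WT members. Bipolar cells showed the same order at a lower level, with 2146, 659 and 633 CPM of Mt1, and the part of free RNA in the glial values was not tested.

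The promoters of both called metallothioneins are shown because the genes moved together and are known targets of the zinc-sensing factor MTF1, which binds metal response elements. The windows run from 250 bases before to 50 bases after the RefSeq start (GRCm38.p6, plus strand, chr8:94178839-94179138 for Mt1 and chr8:94172368-94172667 for Mt2). Capitals mark matches to the core letters TGCGCNC or TGCACNC on either strand, 3 in Mt1 and 4 in Mt2, and the Mt3 window holds 1. Of 32851 such windows 25.7% hold at least 1 match and 1.97% hold at least 3. A match is only a description of the letters.
Mt1: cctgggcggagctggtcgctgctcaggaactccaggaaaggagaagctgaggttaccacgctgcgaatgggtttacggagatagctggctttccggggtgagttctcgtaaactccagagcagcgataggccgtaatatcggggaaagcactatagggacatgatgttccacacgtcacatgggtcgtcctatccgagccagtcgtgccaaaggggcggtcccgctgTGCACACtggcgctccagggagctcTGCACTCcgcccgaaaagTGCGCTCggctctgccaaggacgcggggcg
Mt2: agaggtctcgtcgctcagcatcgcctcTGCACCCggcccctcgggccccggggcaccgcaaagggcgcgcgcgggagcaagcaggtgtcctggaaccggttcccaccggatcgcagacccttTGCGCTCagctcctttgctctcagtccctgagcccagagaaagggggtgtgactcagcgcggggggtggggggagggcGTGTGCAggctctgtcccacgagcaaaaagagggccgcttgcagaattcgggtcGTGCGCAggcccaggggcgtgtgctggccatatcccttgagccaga

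Interferon-responsive genes stood higher in KO members as a list, 19 of 19 measured, 8 of them called, with a median of 0.83 (log2). The antiviral enzyme Rsad2 had 31.6, 14.3 and 4.87 CPM in KO, treated and WT members, and Ifitm3, a membrane protein that blocks virus entry, had 447, 277 and 156 CPM. The ubiquitin-like modifier Isg15 had 77.3, 38.7 and 25.1 CPM. Of 7 antigen presentation genes 6 were higher and 2 were called, H2-D1 with 115 CPM in KO against 56.3 CPM in WT and B2m with 118 against 55.5 CPM. H2-D1 has close paralogs whose reads can be divided between genes. Complement genes had a median of 2.08 with 4 of 6 called. C4b, the fourth component, which has the near-identical copy C4a, had 124 CPM in KO members, 54.1 CPM in treated members and 14.6 CPM in WT members. Serping1, the inhibitor of the first component, had 102, 48.2 and 20.2 CPM. C3 had 19.0, 1.38 and 0.655 CPM, but only 25 KO members carried it and 5 of them held 59.4% of the reads. Microglial markers, given above, were highest in KO members too. Values without barcodes with microglial reads are not given for the interferon, antigen presentation and complement genes.

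Of 14 Müller transcription factors 13 were lower in KO members, 2 of them called, with a median of −0.42 (log2). Hes5, a Notch target that restrains neuronal fate, had 113 CPM in KO members, 379 CPM in treated members and 734 CPM in WT members, a KO to WT ratio of 0.154 (0.141 to 0.169). It was read in 34.3% of KO, 60.9% of treated and 70.5% of WT members, and after thinning in 18.0%, 44.3% and 57.4%, against 0.6%, 1.8% and 2.4% of bipolar cells. Hey1, another Notch target, had 8.52, 22.0 and 21.0 CPM. Hes1, which shares that role, had 542, 887 and 1081 CPM and did not pass the call, nor did Sox2 (266, 372 and 422 CPM) or Lhx2 (278, 428 and 517 CPM). Rax, an eye field factor, had 458, 388 and 493 CPM. All 7 genes of the Id and BMP list were lower in KO members and 3 were called, with a median of −0.71. Id3, an inhibitor of basic helix-loop-helix factors, had 461, 925 and 993 CPM, Id2 had 235, 354 and 509 CPM, and the decoy receptor Bambi had 48.8, 161 and 115 CPM. With under 0.3% neuronal marker reads Id3 stood at 766 CPM in KO, 1219 CPM in treated and 1115 CPM in WT members, and its KO to WT call was lost, while Hes5 stood at 184, 606 and 921 CPM.

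The lowest ratio belonged to Slco1c1, the transporter OATP1C1 that carries thyroxine (chromosome 6, 141524368 to 141570177). It had 0.876 CPM in KO members, 13.3 CPM in treated members and 29.2 CPM in WT members, a KO to WT ratio of 0.0300 (0.00785 to 0.0790). Bipolar cells had 1.32, 1.15 and 6.99 CPM, so KO stood below WT in that cell class too. Treated did not stand above KO there. A read was present in 1.36% of KO, 15.5% of treated and 21.0% of WT members, and after thinning in 0.552%, 5.78% and 8.82%, against 0.4%, 0.8% and 1.4% of bipolar cells. Slco1c1 is also an endothelial transporter, and endothelial markers other than Kdr and Flt1 were lowest in KO members. Kdr and Flt1 together went the other way, with 908 CPM in KO, 790 CPM in treated and 860 CPM in WT members. The part of endothelial transcripts in the Slco1c1 difference was not tested. The lipid transporter gene Abca6 had 2.79, 14.4 and 20.2 CPM, the secreted protein gene Crispld1 had 1.51, 10.4 and 13.5 CPM, and the splicing factor gene Esrp1 had 1.99, 7.57 and 14.3 CPM. The other genes of the 12 lowest ratios were less abundant. They were Misp3, which had no read in KO members, at least 3.29-fold lower than its 2.25 CPM in WT over a floor of 3 molecule equivalents in all KO members, and Rasgrp3, Tfap4, Trp63, Gsx1, Lpar3, Gper1 and Wnt6, at 0.0797 to 0.558 CPM in KO against 2.28 to 6.03 CPM in WT. All 8 lost the call when only members without an Ndufa4l2 read, and when only those with under 0.3% neuronal reads, were compared.

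Few genes of the metabolic lists passed the call. Of 17 glycolysis genes 11 were higher in KO members with a median of 0.56 (log2), and 2 were called. The enolase gene Eno1 had 2373 CPM in KO members, 964 CPM in treated members and 1475 CPM in WT members. Its KO to WT ratio did not pass the call, and bipolar cells had 676, 273 and 325 CPM in that order. The lactate exporter Slc16a3 had 23.7, 10.0 and 8.65 CPM and the hexokinase Hk1 had 192, 120 and 87.1 CPM. Of 15 cholesterol synthesis genes 14 were lower and 3 were called, with a median of −0.32. Of 16 respiratory chain genes 11 were higher and none was called. Among 15 genes of glial homeostasis 9 were lower and 1 was called, upward. Glul, the glutamine synthetase, had 4826, 6374 and 7725 CPM and did not pass the call. The stress factors Nupr1 (482, 243 and 86.6 CPM) and Atf3 (366, 219 and 99.9 CPM) were among the 3 called of 13 ATF4-related genes.

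Hypoxia response genes were not uniformly low in KO members, although their Ndufa4l2 was low by choice. Of 29 measured genes 19 were higher than in WT members, with 4 called higher and 1 lower and a median of 0.27 (log2). Adm, the vasodilator peptide adrenomedullin, had 48.8 CPM in KO members, 10.2 CPM in treated members and 5.79 CPM in WT members, a KO to WT ratio of 8.42, and 5 WT members held 63.8% of its WT reads. Vegfa, the main angiogenic growth factor, had 250, 195 and 136 CPM and did not pass the call. Apln, the vascular peptide apelin, had 53.1, 7.80 and 10.5 CPM. Members without any Ndufa4l2 read still had 23.4, 7.29 and 5.06 CPM of Adm in KO, treated and WT. Of 13 vascular ligand genes 4 were called higher and 2 lower. Of 8 β-catenin targets 4 were higher and 4 lower, among them Lgr5 (12.8 CPM in KO against 3.83 CPM in WT), Axin2 (12.8 against 11.5 CPM) and Nkd1 (81.1 against 172 CPM).

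**Figure D2:**
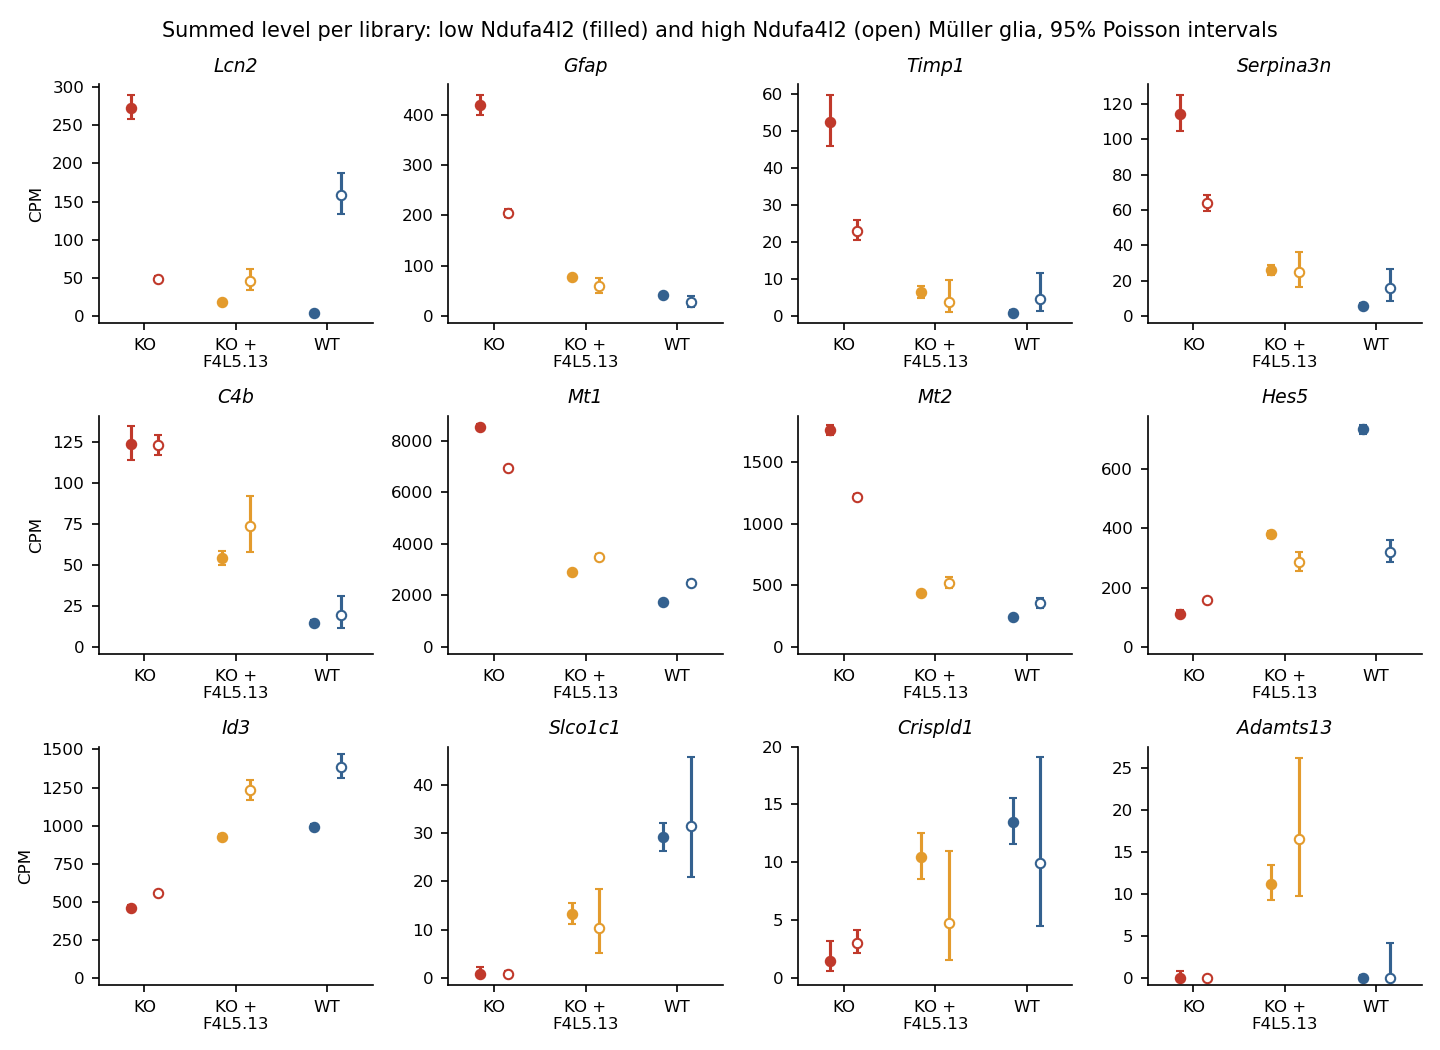
Levels (CPM, y axis) of 12 genes in Ndufa4l2-low (filled) and Ndufa4l2-high (open) Müller glia of the KO, treated and WT libraries, with exact Poisson 95% intervals that cover counting error only. Among the low glia Gfap had 419, 77.1 and 42.2 CPM and Hes5 had 113, 379 and 734 CPM in KO, treated and WT.

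KO and WT high glia differed in the same direction for several of these genes. Mt1 had 6932 CPM in KO high glia against 2490 CPM in WT high glia, Hes5 had 158 against 322 CPM, Id3 had 560 against 1388 CPM, C4b had 123 against 19.5 CPM and Slco1c1 had 0.801 against 31.5 CPM. Each passed the call, with 102 barcodes in the WT set, in which 1.27% of genes were called higher and 1.37% lower in KO high glia. Over the members the KO to WT ratios were 4.93 for Mt1, 0.154 for Hes5, 0.464 for Id3, 8.50 for C4b and 0.0300 for Slco1c1. Lcn2 went the other way, with 48.6 CPM in KO against 159 CPM in WT high glia, where 4 barcodes held all WT reads. Whether the ratios differ between low and high glia was not tested.

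Low glia were next set against high glia of the same library. Among KO glia 122 of 14253 genes (0.856%) were called higher in low glia and 22 (0.154%) lower, and the median of all genes was 0.07 (log2). Since Ndufa4l2 divided the cells, these differences are a description. Of 28 hypoxia genes 22 were lower in the low glia, 2 of them called, with a median of −0.36. Adm had 48.8 CPM in low against 149 CPM in high glia, Apln had 53.1 against 136 CPM and Vegfa had 250 against 467 CPM. The Adm interval of KO low glia (42.4 to 55.8 CPM) overlapped that of treated high glia (25.2 to 49.0 CPM). Glul had 4826 CPM in low and 6878 CPM in high KO glia, the fibronectin gene Fn1 had 41.9 against 110 CPM, and the proneural factor Neurog2 had 9.56 against 25.9 CPM. The growth hormone releasing hormone gene Ghrh had 1.51 against 8.21 CPM, and the cell death gene Hrk, the calcium sensor Tesc, Megf6, Steap1, Stmn4, the lipolysis inhibitor G0s2 and the adaptor Grb14 completed the 12 lowest ratios, between 0.220 and 0.410.

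Higher in the low glia of the KO library were Steap4 (5.97 against 0.572 CPM), Lcn2 (273 against 48.6 CPM), the zinc finger genes Zic1 (32.7 against 7.15 CPM) and Zic2 (16.5 against 4.35 CPM), and the fatty acid carriers Fabp5 (30.8 against 7.92 CPM) and Fabp7 (9.32 against 2.86 CPM). The remaining genes of the 12 highest ratios were Dio3os, Fam167a, Abi3bp, Ptpru, Cacna1s and Riiad1, between 3.27 and 4.41. The sign of Cacna1s and Riiad1 turned when barcodes with at least 0.3% neuronal reads were left out, where Lcn2, Zic1, Zic2, Fabp5, Dio3os and Abi3bp kept the call and the other 4 genes lost it. In the same set Adm, Apln, Neurog2 and Stmn4 kept the call among the 12 lowest ratios and the other 8 lost it, beside 0.855% of all genes called higher and 0.099% lower. Of 23 gliosis genes 17 were higher in the low glia, 5 called higher and 1 lower, with a median of 0.27. Gfap had 419 CPM in low against 205 CPM in high KO glia. Without barcodes with Pax2 or microglial reads the Gfap log2 ratio was 0.53, against 1.03 with them, and the call ended, as it did in 6 other settings; in that set 0.674% of all genes were called higher and 0.191% lower. Of the microglial markers 6 of 6 were higher in the low glia, where they summed to 112 CPM against 8.12 CPM in high glia. At least 3 microglial reads were found in 13 of 367 low and 34 of 1130 high KO barcodes. All 10 rod markers were higher in the low glia with a median of 0.44.

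Levels were also read across 5 ranges of Ndufa4l2. Adm had 23.4, 48.3, 63.0, 78.9 and 174 CPM in KO barcodes with 0, under 250, 250 to 500, 500 to 1000 and at least 1000 CPM of Ndufa4l2. Vegfa had 175, 269, 272, 399 and 491 CPM in the same ranges of KO, 155, 222, 305, 331 and 474 CPM in treated, and 124, 154, 217, 244 and 242 CPM in WT. Glul had 3991, 4947, 5161, 5853 and 7241 CPM in KO. Ndufa4l2, Adm and Vegfa each scale with the same reads of a barcode. Barcodes were also thinned to 5000 reads, weighted equally and sorted into the ranges anew by their thinned Ndufa4l2. Adm in KO then had 43.9, 103, 68.7, 91.0 and 169 CPM, lowest in the first and highest in the last range. These ranges hold other barcodes than those before thinning, so the middle ranges cannot be compared between them. Before thinning Mt1 did not rise with Ndufa4l2 in KO, with 8675, 8188, 8815, 7168 and 6849 CPM, nor did C4b, with 122, 127, 122, 132 and 119 CPM. Hes5 was highest at both ends in KO (149, 112, 95.1, 74.4 and 187 CPM) and decreased with Ndufa4l2 in WT (799, 575, 536, 366 and 233 CPM). Slco1c1 stayed between 0 and 2.02 CPM in every KO range.

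**Figure D3:**
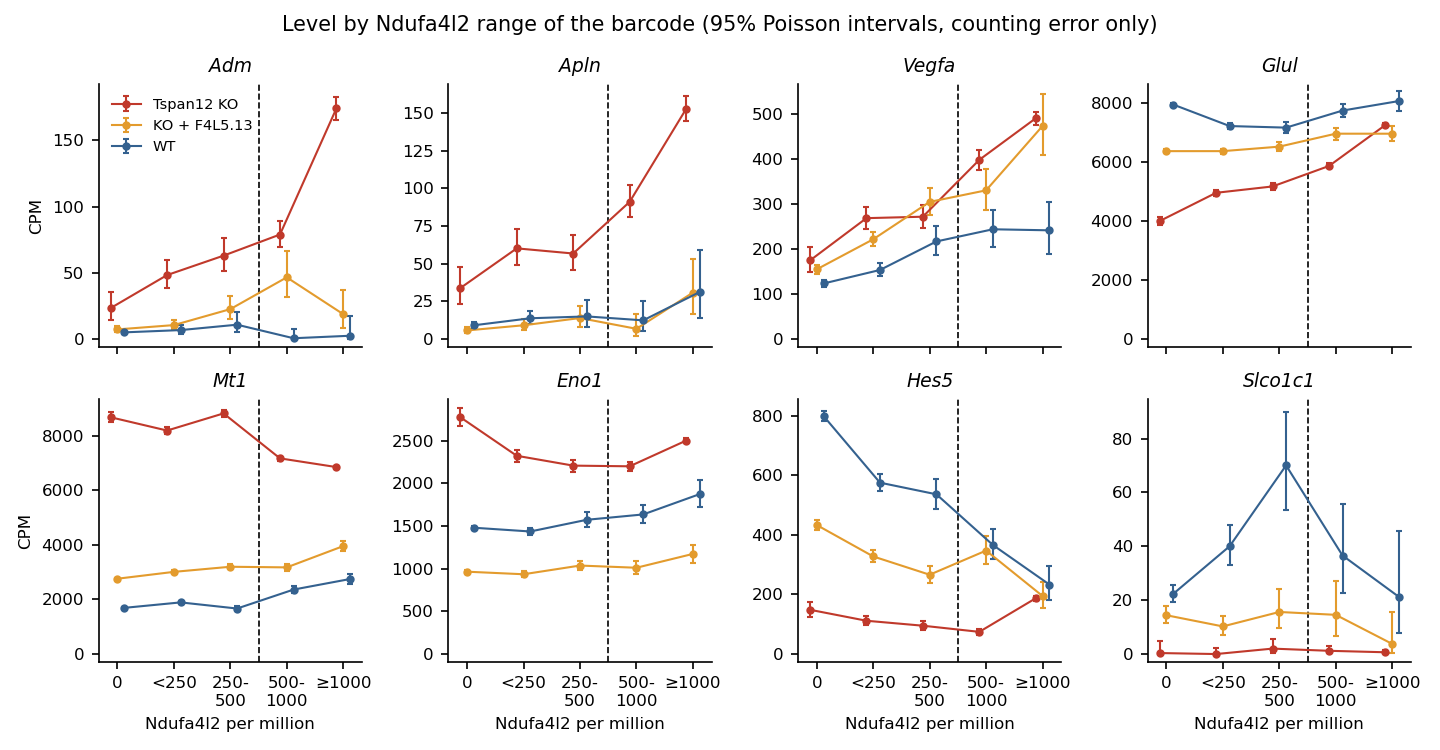
Levels (CPM, y axis) of 8 genes in Müller barcodes of 5 Ndufa4l2 ranges (x axis, low to high) in the KO, treated and WT libraries, with exact Poisson 95% intervals; members lie left of the dashed line. Adm in KO runs between 23.4 and 174 CPM, Mt1 in KO between 6849 and 8815 CPM.

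In the treated library 21 of 13311 genes (0.158%) were called higher and 27 (0.203%) lower in low than in high glia, and in WT 47 of 14005 (0.336%) and 66 (0.471%). The high sets held 123 and 102 barcodes. Hypoxia genes were lower in the low glia in 19 of 28 cases in both libraries, with medians of −0.31 in treated and −0.24 in WT (log2). Gliosis genes ran the other way than in KO, with 16 of 23 lower in treated low glia and 17 of 19 lower in WT low glia, medians −0.18 and −0.46, and the difference between libraries was not tested. In WT the immediate early genes Atf3 (99.9 CPM in low against 261 CPM in high glia) and Ier3 (352 against 888 CPM) and the interferon gene Ifitm3 (156 against 379 CPM) were lower in low glia, and Hes5 was higher (734 against 322 CPM). Cone markers were higher in WT low glia in 7 of 7 cases, 6 of them called, as were Kcne2, Lynx1, Sphkap, Trhde and other genes with at most 4.97 CPM in the high set. None of the 12 highest ratios kept the call once barcodes with at least 0.3% neuronal reads were left out, and Kcne2 and Adrb1 changed sign, whereas Atf3, Ier3 and Ifitm3 kept theirs, beside 0.155% of all genes called higher and 0.773% lower. The 12 lowest ratios in WT also held Slc7a4, Necab3, E2f1, Tagln2, Sowahc, Vit, Ahnak and Ifitm2. In treated glia Glp2r (18.3 CPM in low against 4.72 CPM in high) and the ion transporter gene Slc4a5 (7.95 against 0.295 CPM) were higher in low glia, and Capg, Glb1l, E2f1, Nxph4 and Hsd17b2 were lower, with ratios of 0.367 to 0.477. Otx2, Rd3l, Cds1 and Agr2 were called higher too. Of these treated genes only Hsd17b2 kept the call without barcodes of at least 0.3% neuronal reads, where Otx2, Rd3l, Cds1 and Agr2 changed sign and 0.0582% of all genes were called higher and 0.233% lower. With a threshold of 250 CPM none of them kept it.

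Treated members were compared with KO members, which carry the same genotype label but had no F4L5.13. Of 14079 genes 148 (1.05%) were called higher and 319 (2.27%) lower in treated members, with a median over all genes of −0.03 (log2). This comparison shares the KO library with the one above, so genes that were extreme there can be extreme here in the opposite direction through that library alone, and the values are given side by side only. Of 23 gliosis genes 19 were lower in treated members, 9 of them called, with a median of −0.69. Gfap had 77.1 CPM in treated against 419 CPM in KO members, a ratio of 0.184, and Lcn2 had 17.9 against 273 CPM, a ratio of 0.0654. Timp1 had 6.45 against 52.4 CPM, A2m 6.33 against 61.7 CPM, Steap4 0.968 against 5.97 CPM and Hmox1 6.98 against 40.3 CPM. In KO members 5 barcodes held 40.0% of the Timp1, 44% of the Steap4 and 45.5% of the Hmox1 reads. Not every cytokine response gene was lower. Socs3, the feedback inhibitor of cytokine signalling, had 961 CPM in treated against 513 CPM in KO members, and the acute-phase factor Cebpd had 2311 against 1573 CPM. Mt1 had 2892 against 8540 CPM and Mt2 438 against 1759 CPM, both called lower. Interferon genes were lower in 17 of 19 cases, 5 called, and complement genes in 5 of 6, 3 called, with C4b at 54.1 against 124 CPM.

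Glycolysis genes were lower in treated members in 12 of 16 cases, 3 of them called, with a median of −0.64 (log2), and Pgk1 had 22.2 CPM in treated against 64.0 CPM in KO members. Among 28 hypoxia genes 14 were lower and 14 higher, 3 called lower and 1 higher. Apln had 7.80 against 53.1 CPM and Adm 10.2 against 48.8 CPM. Also among the 12 lowest ratios were Cdh23, a cadherin of hair cells and photoreceptors (0.645 against 9.32 CPM), the kinase Dclk1 (27.9 against 174 CPM), Ralyl, Lhfp and the phosphatase Ptprr, at ratios of 0.0692 to 0.16. Of the Lhfp reads in KO members, 5 barcodes held 47.3%. Amacrine markers were lower in 6 of 6 cases, all called, in treated members.

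Several genes that were low in KO members were higher in treated members. Hes5 had 379 CPM in treated against 113 CPM in KO members, a ratio of 3.36, Id3 had 925 against 461 CPM, a ratio of 2.01, and all 7 Id and BMP genes were higher with 2 called and a median of 0.69 (log2). Of 14 Müller transcription factors 9 were higher and 2 called. Slco1c1 had 13.3 against 0.876 CPM, a ratio of 15.1, Crispld1 10.4 against 1.51 CPM and the membrane protein gene Shisal2b 66.2 against 11.3 CPM. Cholesterol genes were higher in 12 of 14 cases, 1 called, with a median of 0.24. Immediate early genes were higher in 15 of 18 cases, 1 called, with a median of 0.32, and the shear-responsive factor Klf2 had 125 against 57.4 CPM. Adamts13, the protease that cuts von Willebrand factor, had 11.2 CPM in 151 of 1126 treated members and no read in the 367 KO members, at least 16.4-fold higher over a floor of 3 molecule equivalents in all KO members. Treated bipolar cells had 6.44 CPM of it, against 0.102 CPM in KO bipolar cells, so the signal was not limited to Müller glia. The remaining genes of the 12 highest ratios were Tfap4, Rasgrp3, Lpar3, Itpka, Wnt6, Hormad2, Cenpa and Bvht, at 2.82 to 5.43 CPM in treated against 0.0797 to 0.797 CPM in KO members. Among members with under 0.3% neuronal reads 5 of these 12 and 7 of the 12 lowest kept the call, beside 1.08% of all genes called higher and 1.56% lower there.

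**Figure D4:**
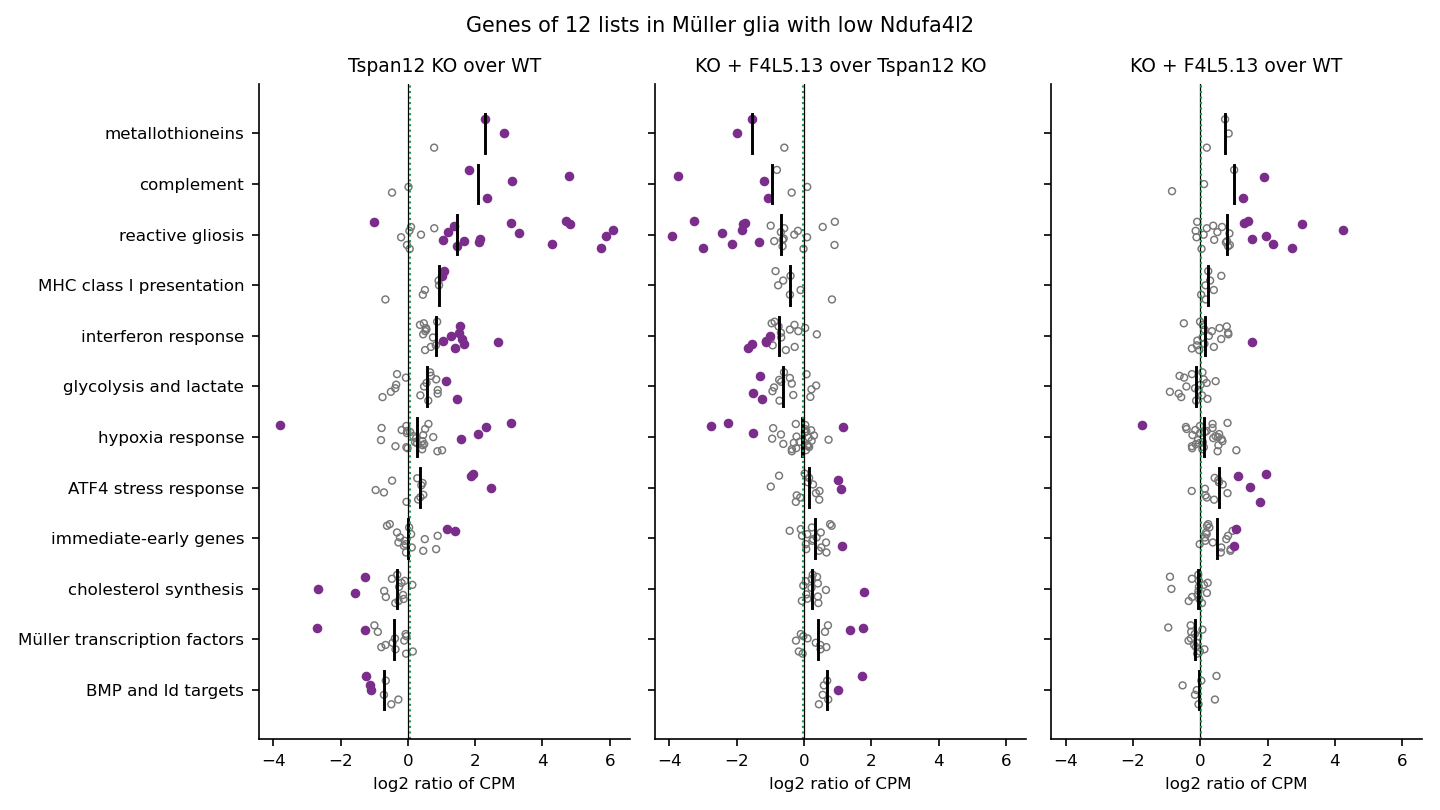
Log2 ratio (x axis) of each measured gene of 12 lists (y axis) between KO and WT, treated and KO, and treated and WT members. Filled points passed the call, the black bar is the list median and the green dotted line the median of all genes. The gliosis median is 1.47 for KO against WT, −0.69 for treated against KO and 0.79 for treated against WT.

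Treated members were set against WT members, both from libraries in which most Müller barcodes were members. Of 15289 genes 104 (0.68%) were called higher and 136 (0.89%) lower in treated members, with a median of 0.02 (log2), and these comparisons share both libraries with those above. Gliosis genes were higher, 20 of 23 with 8 called and a median of 0.79. Gfap had 77.1 CPM in treated against 42.2 CPM in WT members, a ratio of 1.82 that did not pass the call. Timp1 had 6.45 against 0.943 CPM, Serpina3n 25.9 against 5.79 CPM, Edn2 3.61 against 0.157 CPM and C4b 54.1 against 14.6 CPM, all called. Mt1 had 2892 against 1734 CPM, a ratio of 1.67, and Mt2 438 against 244 CPM, a ratio of 1.80, neither called. ATF4-related genes were higher in 13 of 14 cases, 4 called, with a median of 0.55; Asns, the asparagine synthetase, had 14.5 against 3.75 CPM and Nupr1 243 against 86.6 CPM. Immediate early genes were higher in 17 of 18 cases, 2 called, with a median of 0.49, and Egr2 had 75.1 against 36.1 CPM. Interferon genes had a median of 0.13 with 1 called and hypoxia genes one of 0.11 with 1 called lower. Adamts13 had 11.2 against 0.0262 CPM, and its reads in WT came from 1 barcode, so that the interval of the ratio reaches from 34.5 upward without a useful upper bound. Other genes of the 12 highest ratios were Bcl3, Tubb6, Flnc, Hmga2, Glp2r, Tent5b, Zfp488 and Aebp1, at ratios of 3.98 to 8.78.

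Hes5 had 379 CPM in treated against 734 CPM in WT members, a ratio of 0.517 that was not called, and Slco1c1 had 13.3 against 29.2 CPM, a ratio of 0.454. The Slco1c1 call ended with the mean of each barcode's CPM, in barcodes of 10000 to 40000 reads, with few neuronal reads and in members without an Ndufa4l2 read, where 0.334% of all genes were called lower. The Id and BMP list had a median of −0.05 (log2) with none called, and Id3 had 925 against 993 CPM. Among the 12 lowest ratios were the retinoid binding protein Rbp7 (0.469 against 2.52 CPM), the retinoic acid hydroxylase Cyp26b1 (3.58 against 10.1 CPM) and the opsin Rgr of Müller glia and pigment epithelium (4.19 against 9.83 CPM). Cdh23, Galnt17, Vax1, Defb11, Parvaos, Trhde and Tmem204 were the others at ratios of 0.232 to 0.415, with Olfr77 and Cdk5rap1. Olfr77 had 27.3 CPM in treated against 66.3 CPM in WT members and 25.5 against 66.5 CPM in bipolar cells, and Cdk5rap1 had 4.55 against 12.4 CPM in members and 5.58 against 16.7 CPM in bipolar cells, so both were also lower in the other cell class. Among members with under 0.3% neuronal marker reads 3 of the 12 highest and 2 of the 12 lowest ratios kept the call, beside 0.365% of all genes called higher and 0.342% lower there.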

How the data were processed

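Single-cell 3′ tag libraries of dissociated P26 mouse retina were made with the 10x v3 kit, per the labels' protocols. The deposited tables hold estimated counts for 24071 genes, and the submitters' processing notes name Partek 9.0 and mm10 without a role. The sources used here do not say whether the authors had collapsed duplicate reads, so the deposited estimated counts are called reads. Of the nonzero values 2.33% in KO, 2.34% in treated and 2.39% in WT were not whole (tolerance 0.001). All were rounded, which set 3.33%, 3.37% and 3.39% to 0.

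Barcodes with at least 500 genes and at most 20% mitochondrial reads were kept. Reads of a set were summed and scaled to CPM by all its reads. Reads divided by 2.87 (KO), 3.19 (treated) and 2.76 (WT) gave molecule equivalents, on which every interval rests. The divisor is the ratio of the summed squares to the sum of values up to 10 in genes found in at most 1% of barcodes. Ratios have exact conditional binomial 95% intervals, shares Clopper-Pearson and levels Poisson intervals, all for counting error only. With 1 library per group no test between groups was possible and none was made from cells. Only the ratio, its interval and the call were checked on simulated data. These were Poisson counts without spread from cell to cell, drawn with the divisors already given. The member rule, the estimate of the divisor and the thinning were not checked in this way.

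Named genes are the 12 highest and 12 lowest ratios among called genes, ordered with a prior of 0.5, in which 5 barcodes held at most 50% of the reads of the higher side. Mitochondrial, ribosomal, haemoglobin, crystallin, histone and sex-linked genes, unnamed models, the genes of the member rule and markers of other cells were not ranked. Genes of the lists may be named too, and single values of a few genes are not reported here. No doublet caller was run; mixed barcodes were left out in alternatives instead. The members and lists were chosen with earlier results of these data known. Gene positions are from GENCODE (GRCm38) and promoters from RefSeq (GRCm38.p6). Python 3.11.15, numpy 2.4.6, scipy 1.17.1, pandas 2.3.3 and matplotlib 3.10.9 were used.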

Additional observations from a re-analysis of the deposited data

Results flagged for a closer look

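Opposite calls in low against high glia of different libraries were found for 4 genes. Lcn2 was 5.62-fold higher in low glia in KO, with ratios of 0.386 in treated and 0.0291 in WT, where 4 barcodes held all reads of the high set. Rgs5, a pericyte gene, had ratios of 13.8 in KO, 0.179 in treated and 0.252 in WT, all resting on at most 5 barcodes of the higher side. Rsad2 had 4.85 in treated, with reads in 3 high barcodes, and 0.210 in WT. Rbpms had 2.10 in KO and 0.452 in WT.

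The KO to WT ratios of low and of high glia lay on opposite sides of 1 for Lcn2, with ratios of 59.2 in low and 0.307 in high glia, and for Hspb1, with 2.33 in low and 0.410 in high glia, where 13 WT barcodes carried Hspb1. None of these differences between libraries or sets was tested.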

How the results depend on the processing

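No paired analysis was possible because each group is 1 library and the groups share a single replicate number. The share of Müller barcodes that were members was 15.0%, 80.3% and 88.5% in KO, treated and WT with a threshold of 250 CPM, and 41.7%, 96.1% and 97.8% with 1000. In KO it was 21.4% in barcodes of 10000 to 40000 reads, 17.9% with under 0.3% neuronal marker reads and 26.8% after thinning. KO against WT members gave 745 calls, and 485 with at least 100 molecule equivalents, 1602 without a divisor, 391 with few neuronal reads (264 shared) and 434 in members without an Ndufa4l2 read (284 shared, 74.7% higher, against 62.4%). Treated against KO members gave 467, and 283, 1141 and 283 (185 shared) under the first 3 of these settings, and 349 in barcodes of 10000 to 40000 reads (42.7% higher, against 31.7%). Treated against WT members gave 240 (43.3% higher), and 143 and 709 for the minimum and the divisor, 135 (68.9%) in the depth range, 417 (64.7%) without the tenth of barcodes with most neuronal reads, 93 with few neuronal reads, 154 (69.5%) without an Ndufa4l2 read, and 66.1% higher with mean CPM. Low against high glia gave 144 calls in KO, and 270 with a threshold of 1000, 80 with the higher minimum, 470 without a divisor and 90 in the depth range. In treated it gave 48 (43.8% higher), and 524 (63.9%) without a divisor, 26 in the depth range, 30 (20.0%) with few neuronal reads, and 54.3% and 29.2% higher with minimums of 100 and 10. In WT it gave 113 (41.6% higher), and 254 (16.9%) with a threshold of 250, 591 without a divisor, and 29.4%, 52.3%, 29.9%, 16.7% and 54.8% higher with mean CPM, the higher minimum, the depth range, few neuronal reads and no Pax2 or microglial barcodes. A threshold of 1000 left under 50 high barcodes in treated and WT and was not run there. These log2 ratios changed sign. In the depth range they were Pdgfb 2.49 and Serpinf1 −0.35 for KO against WT, Serpinf1 1.28 for treated against KO, and Serpinf1 −1.04 and Hspb1 −0.0022 for low against high KO. With few neuronal reads they were Cacna1s −0.94 and Riiad1 −0.69 in KO, Agr2 −2.02, Cds1 −1.46, Otx2 −0.0033 and Rd3l −0.54 in treated, and Adrb1 −0.0074, Kcne2 −1.40 and Lcn2 0.99 in WT, all low against high. Without an Ndufa4l2 read they were Pdgfb 2.11 and Slc4a4 −0.23 for KO against WT, Slc4a4 0.17 and Bcl3 0.30 for treated against KO, and Angptl4 0.32 for treated against WT. Of the list medians under other settings, 603 stayed within a range set by the ordered main values of the list's own genes. That range is wide for a short list, so staying within it says little. With few neuronal reads the medians of metallothioneins (0.86, treated against WT) and glycolysis (−0.33, low against high KO) left it. Without a divisor intervals are narrower by construction; other causes were not tested. The alternatives with few neuronal reads, without Pax2 or microglial barcodes and without an Ndufa4l2 read were chosen after seeing the data. The high sets of treated and WT hold 123 and 102 barcodes.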
